A study of Trichoderma reesei with 12 samples.

Results

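The comparison described here is that of 4 libraries of a Trichoderma reesei strain lacking sor4 with 2 libraries of its parent strain, all grown in light, which make up 6 of the 12 libraries of the series. The libraries were chosen by their titles, which give strain, light and replicate number. T. reesei is a filamentous fungus used to produce cellulases. The parent, QM6aΔku80 and called ku80 here, is labelled WT but lacks ku80. The other strain, QM6aΔku80Δsor4 and called sor4 here, carries both deletions, so that loss of ku80 is shared by all 6 libraries. Both strains were grown for 96 h at 28 °C on cellulose, the carbon source of a minimal medium, and the material was mycelium. The treatment label gives light for these 6 libraries, while the treatment protocol names darkness for all samples. The other 6 libraries, 2 of ku80 and 4 of sor4, came from darkness. The labels give neither the number of independent clones of the deletion strain nor whether replicates were separate cultures, so p-values reflect no more than how these libraries vary, possibly for technical reasons.

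The SOR cluster is a group of neighbouring genes for sorbicillinoids, yellow polyketide pigments of Trichoderma and related fungi. It encodes polyketide synthases, a monooxygenase, transcription factors and transporters, and the title of the series calls sor4 a transporter of this cluster. In T. reesei, light is sensed by the photoreceptors BLR1, BLR2 and ENV1, and it alters the transcription of genes for cellulose degradation and secondary metabolism. The series asks which transcripts depend on sor4 in light and in darkness. The deposited table gives identifiers made of Tr, a letter, a number and W or C, and does not pair them with gene names. Of its 10879 rows, 0 matched the reference table of 9116 genes, so that neither sor4 nor markers of mycelium could be looked up by name. Roles are therefore not given for single identifiers, and neighbours are neighbours in the order of the table.

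Total counts of the 6 light libraries ran from 7844524 in ku80 replicate 2 to 10979453 in sor4 replicate 2. Counts above 0 were found in 9299 and 8968 rows in ku80 replicates 1 and 2, and in 9371 to 9437 rows in the sor4 libraries. In such bulk samples, fewer cells of a kind and less RNA per cell cannot be told apart. The sor4 libraries all had more detected rows than both ku80 libraries (exact permutation test, two-sided p = 0.0667, the smallest that 2 libraries against 4 can give). Levels are given as CPM, counts per 1000000 of the scaled library size. The 3 rows that the table names itself, mat1-1-1, mat1-1-2 and mat1-1-3, genes of one of the mating types of T. reesei, had 0 counts in all 12 libraries. QM6a is known to carry the other mating type.

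The ku80 light libraries stood further apart from each other than from any sor4 light library, by the number of genes that differed strongly. Between the ku80 pair, 100 of 8939 tested genes (1.12%) were over 4-fold apart on the log2(CPM + 1) scale, 93 of them higher in replicate 2 and 7 higher in replicate 1. The 6 pairs of sor4 light libraries had 0 to 11 such genes, and the 8 pairs of a ku80 with a sor4 library had 38 to 58. At over 2-fold the counts were 670 for the ku80 pair, 62 to 121 within sor4 and 280 to 487 between the strains. Among genes with a mean of at least 5 CPM over the series, the median difference was 1.16-fold for the ku80 pair, 1.08-fold to 1.09-fold within sor4 and 1.11-fold to 1.15-fold between strains. With 1 pair of ku80 libraries, no error can be given for its spread.

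**Figure D1:**
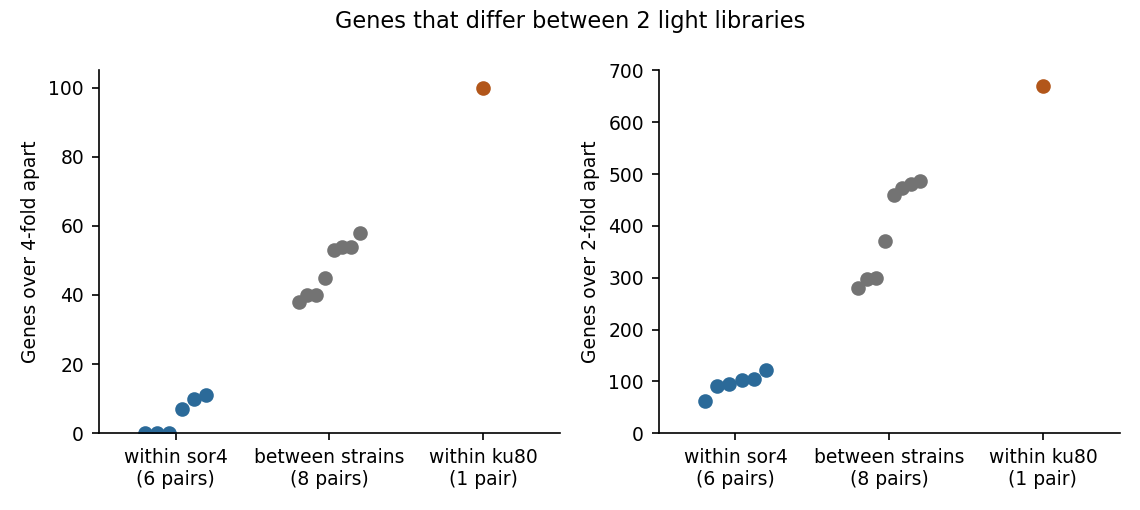
Number of tested genes over 4-fold apart (left) and over 2-fold apart (right) on the log2(CPM + 1) scale, each point 1 pair of light libraries. The ku80 pair, at 100 and 670 genes, lies above all pairs between strains (38 to 58 and 280 to 487) and above all sor4 pairs (0 to 11 and 62 to 121).

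The main axis of variation among the light libraries likewise separated the ku80 pair. In a principal component analysis of log2(CPM + 1), the first component held 42.1% of the variance and placed ku80 replicate 1 at -18.1, the 4 sor4 libraries between -6.04 and -3.24, and ku80 replicate 2 at 35.1. The second component held 27.5% and ordered the libraries by strain, with ku80 at -25.2 and -9.11 and sor4 between 4.10 and 13.7. The third, with 11.3%, set sor4 replicate 1 (-17.2) apart from the other sor4 libraries (-2.83 to 8.64).

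Transcripts for which 1 light library lay over 2-fold beyond all 5 others were nearly all set by a ku80 library. In ku80 replicate 1, 100 genes were lower than everywhere else and 0 were higher. In ku80 replicate 2, 85 genes were higher and 49 lower. Each sor4 library had at most 3 genes in either direction. The 100 genes that were low in ku80 replicate 1 had a median of 10.7 CPM there, against 56.7 CPM in the other light libraries and 56.7 CPM in darkness. TrD0984W, named after its values were seen, stood at 5.95 CPM in ku80 replicate 1 and at 84.4 CPM in replicate 2, against 70.3 to 113 CPM in sor4. TrB1808W, also named in that way, stood at 5.57 and 58.0 CPM in ku80 and at 49.0 to 59.1 CPM in sor4. For both transcripts the sor4 libraries lay near ku80 replicate 2 and away from replicate 1.

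The largest single differences within ku80 also had replicate 2 above replicate 1, but here the sor4 libraries lay nearer to replicate 1. TrA0808W stood at 2.78 CPM (29 counts) in ku80 replicate 1 and at 356 CPM (2847 counts) in replicate 2. In the sor4 light libraries TrA0808W stood at 11.3, 19.6, 8.42 and 8.30 CPM, and in darkness at 42.2 to 62.2 CPM in ku80 and 4.62 to 29.5 CPM in sor4. TrA1948C had 0.768 and 105 CPM in the ku80 light libraries and 0.490 to 1.59 CPM in sor4. For both transcripts ku80 replicate 2 lay far above the other 5 light libraries. TrC1552C, named after its values were seen, stood at 47.3 CPM in ku80 replicate 1, at 1614 CPM in replicate 2 and at 53.4 to 71.7 CPM in sor4. Its level in replicate 2 was above that of the 6 dark libraries (1293 to 1496 CPM), while the other 5 light libraries were far below them.

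The 9 transcripts that met a strict rule for darkness were at or near 0 in ku80 replicate 2, but others were not. Of the 85 genes high in ku80 replicate 2 alone, 51 were nearer to their dark level in that library than the other light libraries were. For 57 of the 85 the dark mean was over 2-fold that of the other light libraries. Picking genes high in ku80 replicate 2 thus favours nearness to the dark level, and the share over all genes was not counted. By another rule, 9 genes had at least 100 CPM in every dark library and under 1 CPM in the other 5 light libraries. Their median in ku80 replicate 2 was 0 CPM. The highest of these 9 stood at 1.00 CPM there, and none of the 9 exceeded 0.720% of its mean dark level. TrA1948C, which the rule leaves out, ranged from 57.9 to 539 CPM in darkness. It stood at 105 CPM in ku80 light replicate 2 and at 0.490 to 1.59 CPM in the other 5 light libraries.

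Where replicate 1 of ku80 was the higher library, the differences were fewer and smaller. TrE1207C had 61 counts (5.85 CPM) in ku80 replicate 1, 0 counts in replicate 2 and 44 to 68 counts (4.24 to 6.34 CPM) in the sor4 libraries. TrE1044C stood at 77.2 and 12.8 CPM in ku80 and at 38.4 to 66.0 CPM in sor4. TrG0325C, named after its values were seen, stood at 11.8 and 1.38 CPM in ku80 and at 9.30 to 10.9 CPM in sor4. All 7 genes over 4-fold higher in replicate 1 had a sor4 mean closer to replicate 1. Of the 93 that were higher in replicate 2, the sor4 mean lay closer to replicate 1 for 44 and closer to replicate 2 for 49, and it lay between both ku80 values for 80 of the 93.

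A set of 12 of the 8939 tested transcripts was low in replicate 1 of both strains. These genes, found after the values were seen, were over 2-fold lower in light replicate 1 of ku80 and of sor4 than in each of the other 4 light libraries. With the direction turned around 0 genes met this rule, and for replicate 2 of both strains there was 1 higher gene, TrC1527C, with 4.13 CPM in ku80 and 4.15 CPM in sor4 replicate 2 against 0.560 to 1.08 CPM elsewhere in light, and 0 lower ones. Of the set, 8 identifiers fall into adjacent pairs, TrB0597W with TrB0598W, TrB0628C with TrB0629C, TrE0170C with TrE0171W, and TrG0015C with TrG0016W. The sources used here do not give the strand setting of the counting, so reads of adjacent genes that overlap could not be told apart. The other 4 identifiers are TrA2054W, TrD1209W, TrG0122W and TrG0220C.

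The rule that found the set fixes its differences between replicates, so the values that follow are a description. TrG0016W stood at 29.4 and 880 CPM in ku80 replicates 1 and 2 and at 82.1, 522, 787 and 628 CPM in sor4 replicates 1 to 4. TrE0170C stood at 8.73 and 264 CPM in ku80 and at 10.5, 124, 191 and 154 CPM in sor4. TrB0598W, the most abundant of the set, stood at 844 and 4241 CPM in ku80 and at 1451, 3696, 3773 and 3442 CPM in sor4. In all 3 cases both replicate 1 libraries were the lowest and ku80 replicate 2 was the highest. For the 11 genes with counts in every light library, ku80 replicate 2 exceeded replicate 1 by 4.18-fold to 30.3-fold, and the mean of sor4 replicates 2 to 4 exceeded sor4 replicate 1 by 2.15-fold to 14.9-fold. All 6 light levels were below all 6 dark levels for 11 of the 12 genes. The exception was TrB0629C, which had 0 counts in both replicate 1 libraries. Its level in ku80 light replicate 2 (4.38 CPM) was above its lowest dark level (2.02 CPM). The share of all genes with every light level below every dark level was not counted, so this is not shown to be particular to the set. The labels do not tie equal replicate numbers to a common culture or date.

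**Figure D2:**
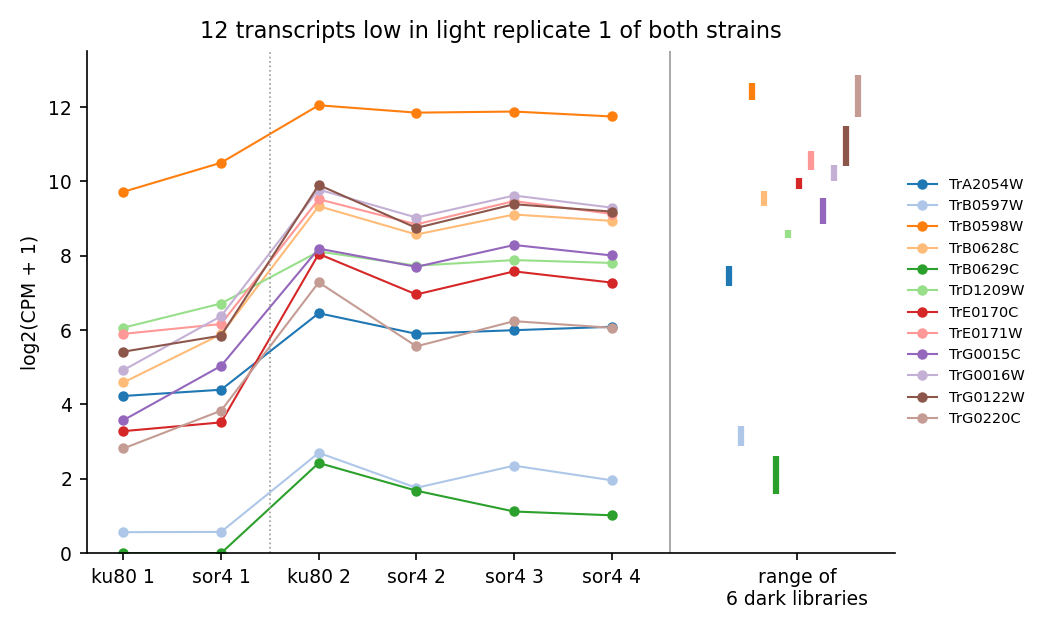
Level of 12 transcripts, as log2(CPM + 1), in the 6 light libraries, with the replicate 1 library of both strains drawn first, and the range over the 6 dark libraries as bars at the right. All 12 lines step up from the replicate 1 libraries to the other 4 light libraries, and 11 of the dark ranges lie above all light points of the same gene.

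Loss of sor4 in light was then tested across all genes. None of 8939 genes passed (0 called, 0% of the genes tested, edgeR quasi-likelihood test with Benjamini-Hochberg adjustment over all tested genes), with adjusted p from 0.0965 upwards. Without adjustment, p was under 0.05 for 730 genes (8.17%), 434 higher in sor4 (4.86%) and 296 lower (3.31%). With median-of-ratios scaling the split was 394 higher to 372 lower, and it was 323 to 289 without sor4 replicate 3 and 301 to 254 without sor4 replicate 4. The median size with all libraries was 1.57-fold for the higher and 1.38-fold for the lower genes, and 132 and 78 of them were at least 2-fold apart. Groups did not overlap for 1730 genes (19.4%), of which 904 (10.1%) were higher and 826 (9.24%) lower in all 4 sor4 libraries than in both ku80 libraries. DESeq2 called 52 of 8762 genes with an adjusted p (0.593%), of which 37 were higher in the deletion strain and 15 lower, while 2 were called by limma-voom (0.0224%).

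The genes tested divide unevenly by how firmly a strain difference can be bounded. Of 8875 genes with counts in light, 6530 (73.6%) had a 95% interval of the strain difference within 2-fold in either direction. This share was 9.29% for genes with a mean under 5 CPM over the 12 libraries, 80.2% from 5 to 50 CPM, 92.8% from 50 to 500 CPM and 85.8% at 500 CPM or more. In that most abundant class of 351 genes the ku80 libraries were a median of 0.21 apart on the log2 scale and the sor4 pairs 0.086, and 14 of the genes were over 4-fold apart within ku80. In the class from 50 to 500 CPM the medians were 0.17 and 0.10. The intervals rest on a spread for each gene that is shared by all groups of the fit. As the ku80 light pair lay further apart than the sor4 pairs, the intervals may be too narrow for this comparison. They may also be too wide for some genes, as the dark libraries enter the shared spread. The common biological coefficient of variation was 0.193 with all libraries and 0.158 with only the light libraries. In the latter fit 882 of 8374 genes had an unadjusted edgeR p under 0.05. Which of these weighs more was not tested. By the letter of the identifier, the share at an unadjusted p under 0.05 ran from 7.10% for G to 9.25% for D.

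The number of genes called changed with the ku80 library that entered the comparison. Without ku80 replicate 1, 110 of 9217 genes (1.19%) passed edgeR's test, 58 higher and 52 lower in sor4. Without ku80 replicate 2, 14 of 9150 (0.153%) passed, all higher in sor4. These fits take the remaining ku80 library to have the spread of the other groups. The lists shared 1 gene, TrA0242W. Of 108 genes from the first list that were also tested with all libraries, 50 had a sor4 mean on the same side of both ku80 libraries, and 31 had groups that did not overlap. Their median distance from ku80 replicate 2 was 1.32 on the log2(CPM + 1) scale, and that from the left-out replicate 1, counted in the direction of the call, was -0.019. For the genes of the second list the distances were 1.5 from replicate 1 and 0.061 from the left-out replicate 2. Each list was called against the ku80 light library that was kept, so the distance from that library follows from the selection. Only the distance from the left-out library does not.

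**Figure D3:**
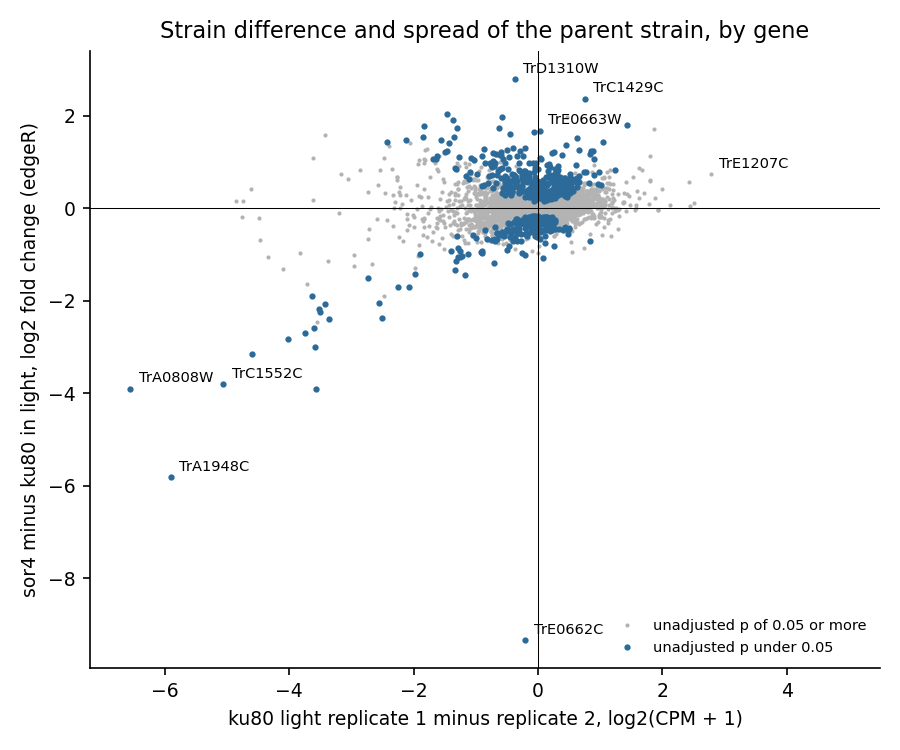
Each point is a gene with a mean of at least 5 CPM in either strain in light, with the difference between ku80 light replicates 1 and 2 on the x axis, as log2(CPM + 1), and the log2 fold change of sor4 against ku80 in light on the y axis. TrE0662C and TrD1310W lie near 0 on the x axis, whereas TrA0808W, TrA1948C and TrC1552C, low on the y axis, are over 4-fold higher in ku80 replicate 2.

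TrE0662C was the transcript with the widest gap between the strains. It had 78 and 70 counts in the ku80 light libraries, or 7.49 and 8.75 CPM, whereas all 4 sor4 libraries had 0 counts. With 3 counts over the sor4 group as the floor, sor4 was at least 108-fold lower. An exact permutation test of its CPM gave a two-sided p of 0.0667, the smallest possible. Groups that do not overlap were part of a rule that named this gene, and 1730 genes (19.4%) had them. This permutation p therefore adds no support. With an adjusted p of 0.259 TrE0662C did not pass edgeR's test over all genes, and its adjusted p ran from 0.00100 to 0.667 over the alternatives. In darkness it stood at 4012 and 5792 CPM in ku80 and at 0.108, 0.572, 0.101 and 3.34 CPM in sor4, where replicate 4 held 39 counts and the others 1 to 5. TrE0662C was 1 of 7 rows with 0 counts in all sor4 light libraries and at least 1 count in both ku80 light libraries, and the other 6 had at most 8 counts in a library.

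The 6 neighbours of TrE0662C did not share a direction in light. The long neighbours TrE0659C (7668 nucleotides) and TrE0660W (7902 nucleotides) stood at 22.5 and 39.6 CPM and at 9.02 and 18.8 CPM in ku80, and at 22.8 to 27.9 CPM and 9.30 to 13.0 CPM in sor4. For both, the sor4 libraries lay between the ku80 libraries. TrE0661W had 0 and 11 counts in ku80 and 0, 0, 0 and 10 in sor4, TrE0664C had 0 and 14 counts in ku80 and 8, 29, 17 and 25 in sor4, and TrE0665C had 0 counts in all light libraries. The next identifier, TrE0663W, stood at 34.7 and 34.0 CPM in ku80 and at 116, 92.7, 105 and 127 CPM in sor4, so that the groups lay far apart, 3.21-fold by their means. Its log2 fold change was 1.68 (SE 0.33, edgeR adjusted p = 0.259). It passed with only the light libraries in the fit (adjusted p = 0.0193) and in DESeq2 (7.68e-05), and its adjusted p ran up to 0.746 over the alternatives.

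**Figure D4:**
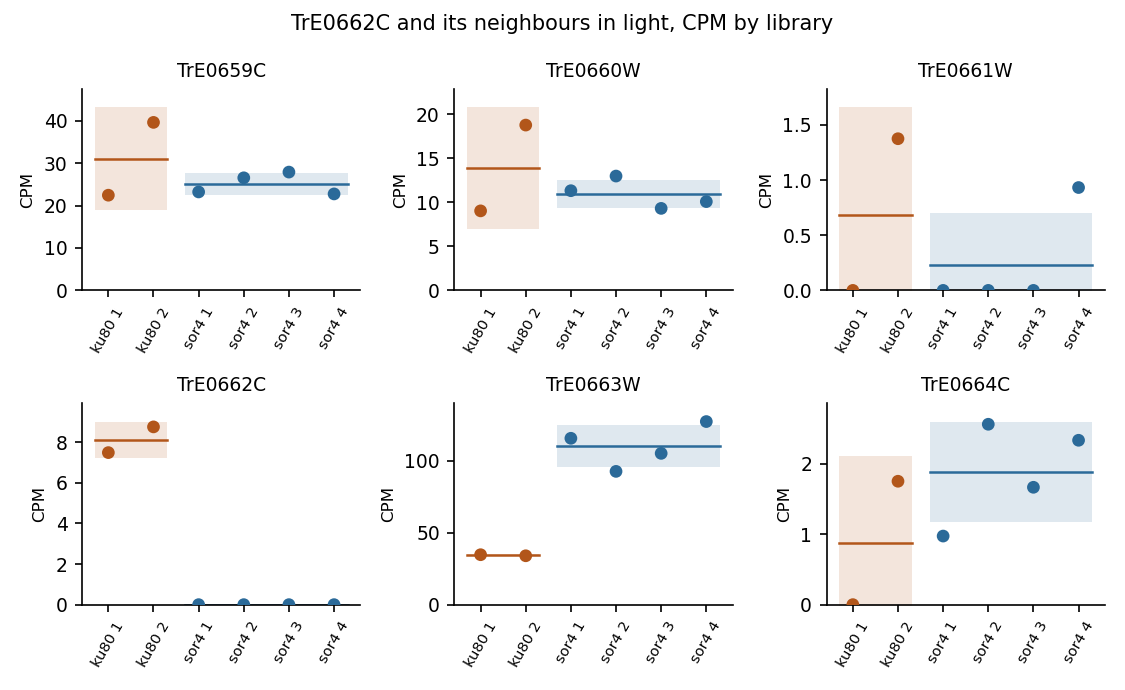
CPM of TrE0662C and of 5 of its 6 neighbours in each light library (points), with the mean (line) and SD (band) of the 2 ku80 and 4 sor4 libraries. TrE0662C is at 0 in all 4 sor4 libraries, TrE0663W lies between 92.7 and 127 CPM in sor4 against 34.0 and 34.7 CPM in ku80, and the other 4 overlap between strains.

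The transcripts with the smallest p among those higher in sor4 had modest and even differences. TrA0242W stood at 146 and 169 CPM in ku80 and at 251, 246, 301 and 297 CPM in sor4. Its log2 fold change was 0.80 (SE 0.11, edgeR adjusted p = 0.0965), with means of 158 ± 16.5 CPM in ku80 (SD, n = 2) and 274 ± 29.1 CPM in sor4 (SD, n = 4), and its adjusted p was 0.0467 without ku80 replicate 1 and 0.0493 without replicate 2. TrB0708W stood at 34.7 and 34.9 CPM in ku80 and at 59.0, 57.7, 66.2 and 68.0 CPM in sor4. Its log2 fold change was 0.85 (SE 0.12, edgeR adjusted p = 0.0965), and its adjusted p was 0.0478 without ku80 replicate 1 and 0.126 without replicate 2. These were also the genes that limma-voom called (adjusted p = 0.0453 for each). In darkness TrA0242W stood at 175 and 190 CPM and TrB0708W at 19.8 and 19.7 CPM (means of ku80 and sor4), and neither passed a test there.

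Larger but more variable differences were seen in genes named after their values were seen. They were the 3 largest increases among genes with a sor4 mean of at least 5 CPM and groups that did not overlap. An unadjusted edgeR p under 0.05 was also asked, so the p-values of these genes were part of their selection. TrD1310W, with a length of 444 nucleotides, stood at 7.39 and 9.88 CPM in ku80 and at 65.1, 33.7, 71.7 and 69.4 CPM in sor4, a ratio of means of 6.95 (log2 fold change 2.80, SE 0.53, edgeR adjusted p = 0.249). TrC1429C, with 465 nucleotides, stood at 81.7 and 48.0 CPM in ku80 and at 329, 215, 286 and 516 CPM in sor4, a ratio of means of 5.19 (log2 fold change 2.37, SE 0.41, edgeR adjusted p = 0.249). In DESeq2 both had an adjusted p of 3.59e-07. TrA0224W stood at 112 and 311 CPM in ku80 and at 576 to 1065 CPM in sor4, a ratio of means of 4.14 (edgeR adjusted p = 0.466). Within ku80, replicate 2 was 2.78-fold above replicate 1 for this gene. TrD1310W in darkness ranged from 94.1 to 348 CPM among the sor4 libraries and so overlapped ku80 (130 and 149 CPM), whereas TrC1429C was higher in each sor4 dark library (32.6 to 69.1 CPM) than in ku80 (21.8 and 14.0 CPM).

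**Figure D5:**
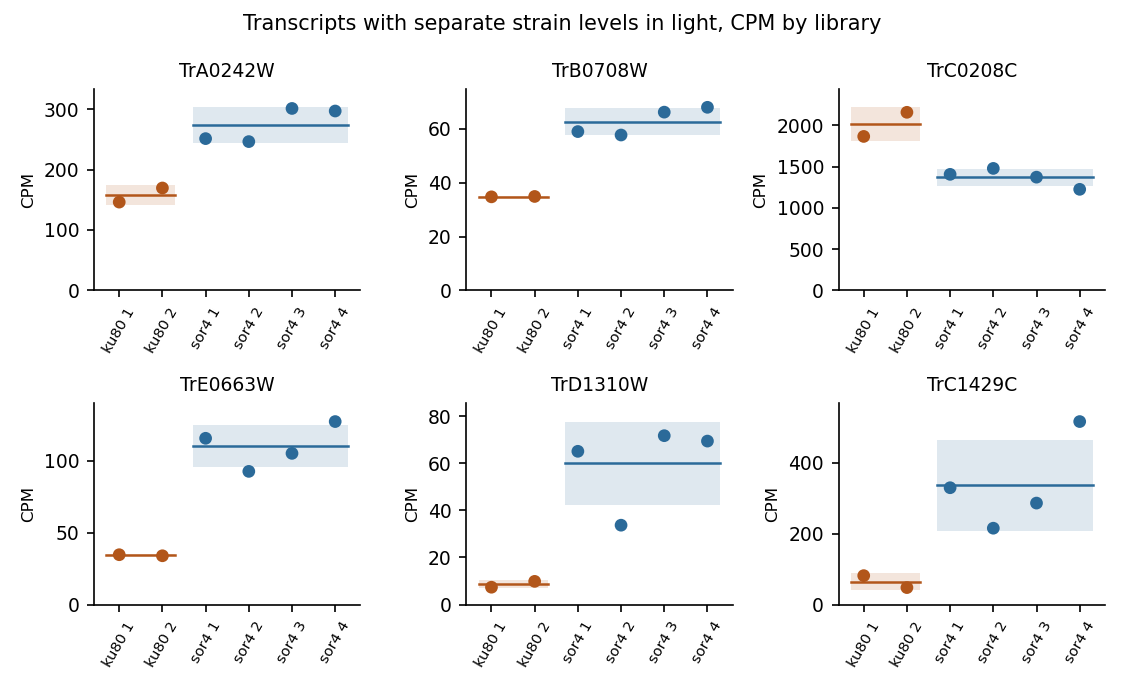
CPM of 6 transcripts whose strain levels did not overlap in light, by library (points), with the mean (line) and SD (band) of the 2 ku80 and 4 sor4 libraries. TrC0208C is lower in sor4 and the other 5 are higher, with ratios of means from 1.74 for TrA0242W to 6.95 for TrD1310W.

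Among transcripts lower in sor4 whose groups did not overlap and whose ku80 mean reached 5 CPM, the smallest p after TrE0662C belonged to TrC0208C. It stood at 1865 and 2157 CPM in ku80 and at 1406, 1478, 1372 and 1224 CPM in sor4, a log2 fold change of -0.55 (SE 0.12, edgeR adjusted p = 0.276, DESeq2 adjusted p = 0.00814). In darkness TrC0208C stood at 479 and 489 CPM (means of ku80 and sor4). TrC1528C and TrE0638W, named after their values were seen, had the largest decreases after TrE0662C among such transcripts with an unadjusted edgeR p under 0.05. Their p-values were thus part of their selection. TrC1528C stood at 2.78 and 7.50 CPM in ku80 and at 1.46 to 2.64 CPM in sor4. Its log2 fold change was -1.44 (SE 0.41, edgeR adjusted p = 0.392). TrE0638W stood at 8.83 and 23.8 CPM in ku80 and at 4.85 to 7.34 CPM in sor4. The log2 fold change of TrE0638W was -1.34 (SE 0.30, edgeR adjusted p = 0.286), at -1.91 without ku80 replicate 1 and -0.50 without replicate 2.

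A few transcripts had counts in light in the sor4 libraries alone, all at low levels. In 44 rows both ku80 libraries had 0 counts while each sor4 library had at least 1, with a median of 13 counts over the 4 sor4 libraries and at most 47. The reverse was seen in 7 rows, a number that cannot be set against 44, since 4 zeros are asked there and 2 here. TrD0170W had 15, 10, 11 and 10 counts in sor4, at least 6.97-fold above the floor of 3 counts over the ku80 group, and TrB0263W had 4, 9, 10 and 24 counts, at least 7.13-fold above it. Both were named after their values were seen. In darkness ku80 held both transcripts, at 1.17 CPM for TrD0170W and 1.13 CPM for TrB0263W. Neither passed edgeR's test in light (adjusted p = 0.249 and 0.297). Whether ku80 lacked the transcripts of the 44 rows in light, or had too few reads to show them, was not tested.

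The transcripts with the most counts in light showed no strain difference beyond the ku80 spread. TrE0391W took 5.72% and 3.89% of all counts in ku80 and 4.08%, 4.37%, 4.00% and 3.41% in sor4, with overlapping groups (exact permutation test, two-sided p = 0.333). Per kilobase of its 180 nucleotides it was also the highest of the 5 genes with the most counts, at 231235 CPM per kilobase over the 6 light libraries. TrC1130C followed with 21706, TrC1333W with 5808, TrC0633C with 3019 and TrB1256C, 29481 nucleotides long, with 163 CPM per kilobase. TrC1333W was the steadiest, at 8610 and 7592 CPM in ku80 and 7678 to 8268 CPM in sor4. TrC1130C stood at 5979 and 3495 CPM in ku80 and at 5819 to 6478 CPM in sor4, and TrC0633C at 4259 and 7966 CPM and at 5036 to 6762 CPM. TrB1256C stood at 5923 and 3389 CPM in ku80 and at 4487 to 5311 CPM in sor4. For these 5 genes the edgeR log2 fold changes lay between -0.27 and 0.37, and the smallest adjusted p was 0.741.

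The strain difference in light was set beside that in darkness, which rests on other libraries. Of the 730 genes at an unadjusted p under 0.05 in light, 71 were also there in darkness, where 693 genes (7.75%) met this threshold and 3 (0.0336%) passed edgeR's adjusted test. Of the 71, 23 were higher in sor4 in both conditions and 33 lower in both, 5 were higher in light and lower in darkness, and 10 the reverse. Across all 8939 genes the log2 fold changes in light and darkness correlated at Pearson r = 0.062 and Spearman rho = 0.081, and across the 7432 genes with a mean of at least 5 CPM at 0.15 and 0.13. All values come from 1 fit over libraries scaled together, and genes are not independent replicates. No gene passed edgeR's test of the difference of strain effects (0 called, 0% of those tested), with 589 genes (6.59%) at an unadjusted p under 0.05 and 4 called in DESeq2. The smallest adjusted p was 0.0759, for TrE0663W, whose log2 fold change was 1.68 in light and -1.63 in darkness. In darkness TrE0663W stood at 665 CPM in ku80 and 215 CPM in sor4 (means of 2 and 4 libraries), and groups did not overlap in either condition.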

How the data were processed

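Per the labels' protocols, a plant RNA kit was used for extraction, and sequencing libraries were stranded and depleted of rRNA. The submitters' processing notes name the aligner HISAT2 version 2.2.1. The deposited table holds raw counts of reads per gene, whole numbers in 1 column per library. The sources used here do not give the genome build, annotation, strand setting or treatment of reads shared by near-identical genes. Of the gene lengths in the table, 94.7% are multiples of 3.

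Columns were matched to samples by the sample descriptions. Counts were tested with edgeR 4.0.16 (R 4.3.3): TMM scaling, the default filter by group (8939 of 10879 rows, holding 99.97% or more of every library's counts), and the quasi-likelihood test with 4 group means, all 12 libraries fitted together, with p adjusted over all tested rows and called under 0.05. The common biological coefficient of variation was 0.193. The SE is the absolute log2 fold change divided by the root of F. Intervals and floors cover counting error or the spread of these libraries only. Within-strain spread was described on log2(CPM + 1). Single values were compared by exact permutation. DESeq2 1.42.0 and limma-voom (limma 3.58.1) were alternatives, beside those of scaling, filter, block and left-out libraries. The fit was also run on simulated counts in which all groups had the same spread for each gene. That simulation therefore does not cover the wider spread seen within ku80 in light.

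Named genes were TrE0662C with 3 neighbours on each side, in each direction the 2 genes of smallest p whose groups did not overlap and whose higher mean reached 5 CPM, the 2 with the largest difference between the ku80 light libraries in each direction, the 5 with the highest mean CPM in light, and the rows the table names. Any other gene was picked with its values in view, as stated where it is named. Members, lists and tests were chosen with earlier results of these data known.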

Additional observations from a re-analysis of the deposited data

Results flagged for a closer look

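In the sor4 light group, Dixon's criterion for a distant value was applied to 35 sets of 4 values, being the levels of named genes and measures of the libraries. Chance alone marks about 1 set in 20, a rate that need not hold near 0 counts, and 2 sets were marked. TrE0661W stood at 0.933 CPM (10 counts) in sor4 light replicate 4 and at 0 in the other 3 sor4 light libraries. TrC1527C, itself chosen because replicate 2 of both strains was high, stood at 4.15 CPM in sor4 light replicate 2 and at 0.560 to 1.08 CPM in the others.

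TrE0663W was marked because every sor4 library was higher than both ku80 libraries in light and lower in darkness, so that its log2 fold changes differed by 3.31 (SE 0.43, edgeR adjusted p = 0.0759). Of the 8939 genes, 78 (0.873%) showed opposite sides without overlap in this way.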

How the results depend on the processing

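Of the genes called between sor4 and ku80 in light, 0 with all libraries, the count was 52 in DESeq2, 2 in limma-voom, 1 with only the light libraries and 1 when replicate number was a block, and from 0 to 110 when 1 library was left out (110 without ku80 light replicate 1, and 14 with replicate 1 kept and replicate 2 left out). The count for the difference of strain effects, also 0, was 4 in DESeq2, 1 with no filter on low counts, and from 0 to 34 when 1 library was left out (34 without ku80 light replicate 1). With the block it was 0. TrE0662C was the gene called under the block, as well as in the fit lacking sor4 dark replicate 4, and that called with only the light libraries was TrE0663W. Whether equal replicate numbers pair the libraries was not tested. Deviations from group means correlated at -0.31 to 0.24 between same-numbered libraries of different groups (14 pairs), at 0.14 for replicate 1 and 0.0011 for replicate 2 of the light groups. With sor4 light replicates 2 to 4, ku80 light replicate 1 correlated at -0.13 to -0.0011. In a group of 2 libraries the deviations mirror each other, so these pairs are not independent. The number of genes over 4-fold apart within ku80 was 171 with a pseudocount of 0.5 CPM, and within 1.5 times the main count with the other scalings and with a minimum of 5 (added after the data were seen) or 10 CPM.

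Of 30 named genes, 15 kept their direction in light in every alternative that gave a value. The log2 fold change of the other 15 turned sign in at least 1, 12 of them without ku80 light replicate 2. When 1 library was left out it ran from -4.91 to 2.07 for TrA0808W, -6.83 to 0.23 for TrA1948C, -4.77 to 0.31 for TrC1552C, -0.22 to 8.66 for TrE1207C, -0.67 to 1.94 for TrE1044C, -0.25 to 2.85 for TrG0325C, -0.15 to 3.22 for TrB1808W and -1.52 to 1.1 for TrC1527C, which also turned with the block (0.12). It ran from -0.67 to 0.14 for TrE0659C, -0.79 to 0.25 for TrE0660W, -5.63 to 4.39 for TrE0661W, -0.53 to 0.020 for TrE0391W, -0.13 to 0.064 for TrC1333W, -0.47 to 0.42 for TrC0633C and -0.29 to 0.52 for TrB1256C. The cause was not tested. The 95% interval of the strain difference lay within 2-fold for 9.29% of genes under 5 CPM and 85.8% of those at 500 CPM or more. The cause of the wider intervals of the former was not tested. Only 2 ku80 light libraries were available for every gene.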
